A study of Mus musculus with 14 samples.

Results

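Granulosa cell transcriptomes, read by RNA-seq from antral follicles, were compared between the lean control mice of 2 colonies, those of the ob colony (CT ob) and those of the db colony (CT db). The comparison comprised 7 of the 14 libraries of the series, 3 from CT ob (libraries 60, 65 and 68) and 4 from CT db (libraries 37, 51, 69 and 75). They were chosen by the names of their count columns, with no measured value used. All animals were females on a chow diet, killed at 12 weeks of age. The db colony was bred from B6.BKS(D)-Leprdb/J pairs, which carry a mutation of the leptin receptor gene Lepr, and the ob colony from B6.Cg-Lepob/J pairs, which carry a mutation of the leptin gene Lep. The controls were lean littermates of the db/db and ob/ob mutants. The sample labels give them as wild type, whereas the column names read as heterozygous, and this could not be settled. Each library was made from a pool of about 50 cells, and neither the sources nor the column names say how many animals gave the cells. The p-values therefore measure the spread between libraries, which may be technical in part.

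Granulosa cells line the follicle and surround the oocyte. They respond to follicle-stimulating hormone (FSH) through its receptor FSHR, convert androgens to oestrogens, secrete inhibin and anti-Müllerian hormone, and pass small molecules to each other and towards the oocyte through gap junctions. Antral follicles are enclosed by a basement membrane of collagen IV and laminins, which granulosa cells help to make. Both colonies were kept on C57BL/6 backgrounds, so the comparison of their lean animals addresses what differs between the colonies in lean animals.

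The counts on genes added up to 3664219 to 4847166 per CT ob library and 3624237 to 4840714 per CT db library, so depth did not separate the groups. The granulosa markers Fshr, Inha, Gja1 and Amh were detected in every library, while the immune markers Ptprc and Adgre1 stayed below 2 CPM (counts scaled to a common library size) and Insl3, a theca cell hormone, had 0 counts in all 7. Other measures moved with the groups, as the plot of library measures shows. Rn18s-rs5, a gene of 18S ribosomal RNA that a protocol that captures polyadenylated RNA is meant to leave out, took 24.5% of library 68, against 6.89% and 6% of the other CT ob libraries and 1.61 to 8.12% of the CT db libraries. Library 68 is therefore called the 18S-rich library, and the counts of calls and the main gene lists are given with and without it. The mitochondrial genome took 3.25 to 4.86% of the CT ob counts and 5.73 to 9.7% of the CT db counts, with no overlap (exact permutation test, two-sided, p = 0.0571, 3 against 4 libraries). The smallest p that this test can give is 0.0286.

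**Figure D1:**
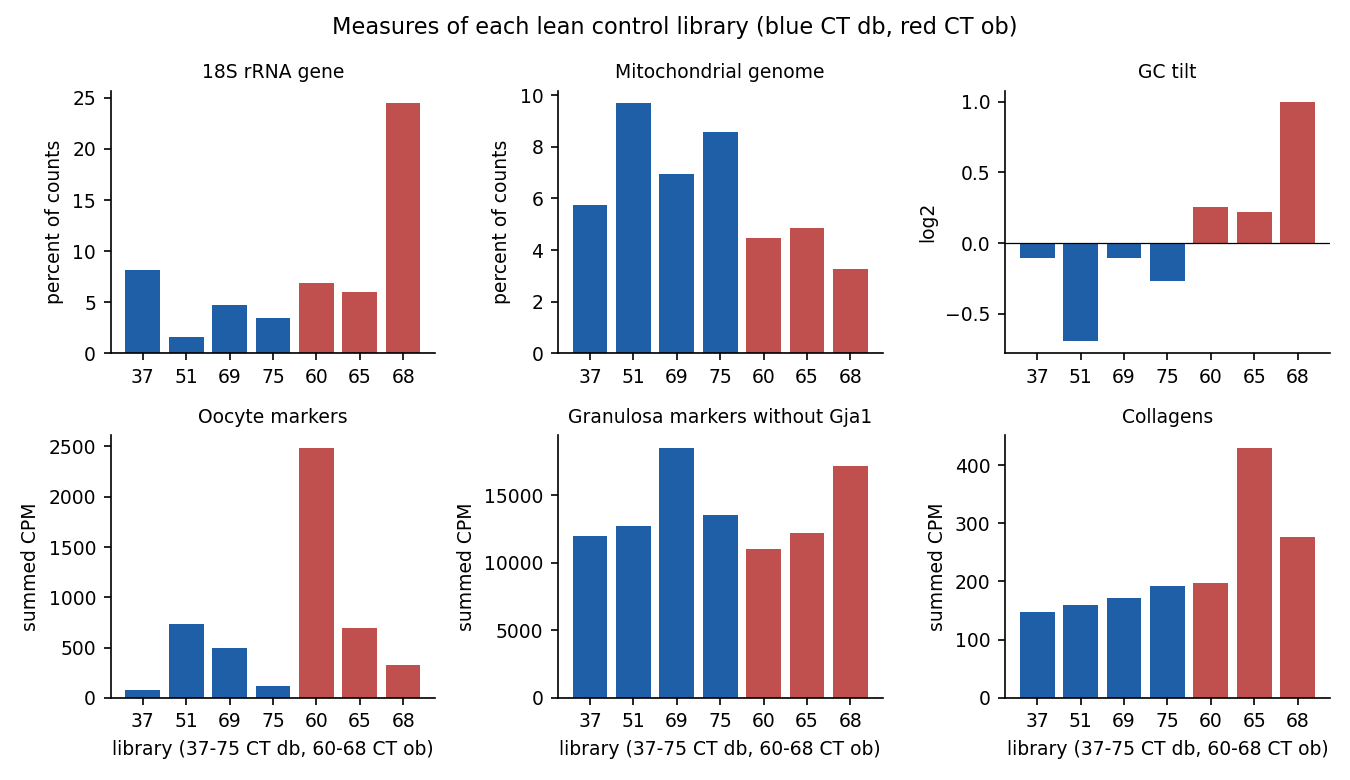
Measures of each lean control library (x axis, library number, CT db in blue and CT ob in red), with percent of counts, log2 units or summed CPM on the y axes as labelled and a bar for each library. Library 68 had 24.5% of its counts on the 18S gene and the largest GC tilt (0.995), and the summed granulosa markers without Gja1 ran from 11029 to 17168 CPM in CT ob and from 11987 to 18527 CPM in CT db, which overlap.

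The groups differed in many genes when the spread was estimated over all 14 libraries of the series. Of 12586 tested genes, 834 (6.63%) were called at an adjusted p of 0.05 or less, 282 higher in CT ob (2.24%) and 552 lower in CT ob (4.39%). The CT ob and CT db values did not overlap for 788 of the 834 called genes and for 21.2% of all tested genes. Across the called genes the median size of the log2 fold change was 0.96. The split of the calls moved with the scaling, and upper quartile factors gave 352 higher and 434 lower.

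The number of calls rested on which libraries entered the fit. With the 7 control libraries fitted alone, 3 genes passed (0.0253%), Ndufs5-ps, Ap3s1 and Fam174a, although 777 had an adjusted p of 0.1 or less. Without the 18S-rich library, 112 genes passed (0.850%), of which 98 were lower in CT ob and 100 were among the 834. All 834 kept their direction without it, and the median size of their log2 fold change was 0.84. Leaving out CT db library 51 gave 138 calls, library 75 gave 201 and library 69 gave 482, while 376 were left without CT ob library 60.

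The GC content of a gene's transcript was tied to the direction of its change. Genes poor in G and C were mostly lower in CT ob and genes rich in them mostly higher. In the lowest decile of GC content (28.3 to 40.8%) the median log2 fold change was -0.54, with 221 of 1256 genes called lower and 1 higher. In the highest decile (56.5 to 73.7%) the median was 0.42, with 4 genes called lower and 87 higher. Without the 18S-rich library these medians were -0.48 and 0.20, so the pattern was present in the other CT ob libraries with a smaller rise at the GC-rich end. The plot by GC decile shows the gradient.

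The following windows of 60 coding bases are shown because they make this gradient visible, and each has the same GC share as its whole transcript to the nearest base. Capitals mark G and C. Gtf2a2 (a subunit of the general transcription factor TFIIA) and Zfp260 (a zinc finger protein) were lower in CT ob, and Erbb2 (a receptor tyrosine kinase of the EGF receptor family) and Unc5b (a netrin receptor) were higher. The windows lie at chr9:69922624-69922683 (Gtf2a2, plus strand), chr7:29804126-29804185 (Zfp260, plus strand), chr11:98310917-98310976 (Erbb2, plus strand) and chr10:60618841-60618900 (Unc5b, minus strand) in GRCm39, each within an exon. Their transcripts hold 41.1%, 41.7%, 57.6% and 58.8% G and C.
Gtf2a2: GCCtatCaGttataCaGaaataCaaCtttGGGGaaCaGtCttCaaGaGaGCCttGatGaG
Zfp260: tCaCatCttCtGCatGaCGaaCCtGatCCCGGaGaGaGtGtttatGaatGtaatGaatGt
Erbb2: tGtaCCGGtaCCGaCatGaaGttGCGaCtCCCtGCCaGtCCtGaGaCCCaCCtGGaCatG
Unc5b: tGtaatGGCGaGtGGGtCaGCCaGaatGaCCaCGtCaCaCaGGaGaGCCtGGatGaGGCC

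**Figure D2:**
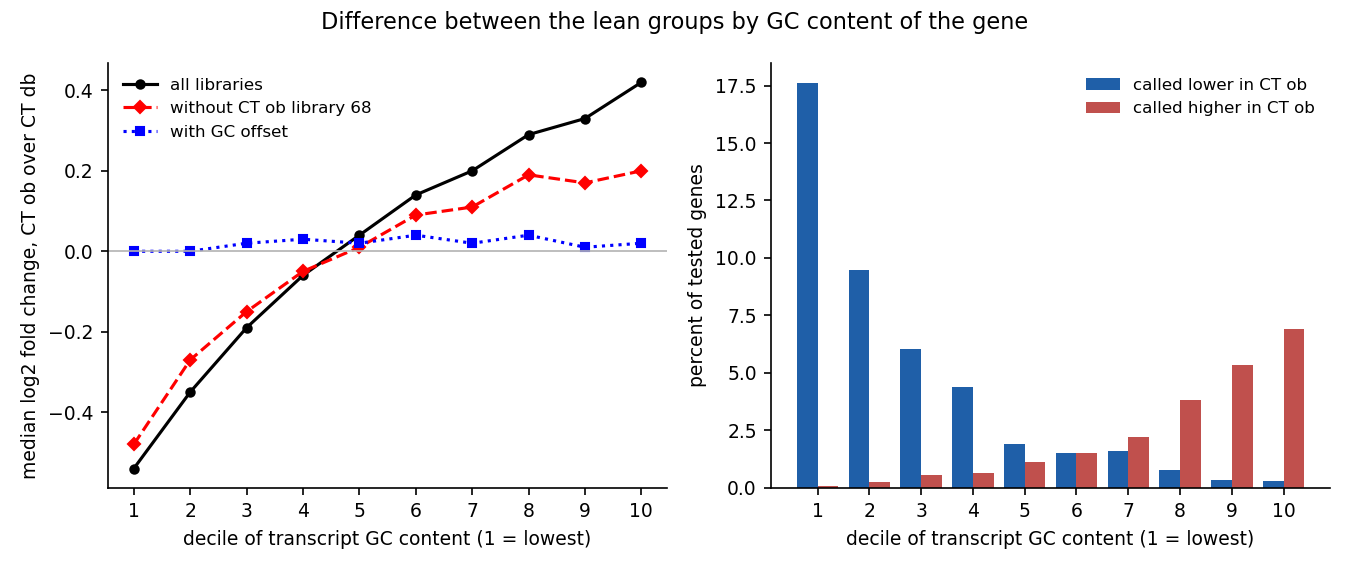
Left, the median log2 fold change of CT ob over CT db (y axis) in each decile of transcript GC content (x axis) for all libraries, without CT ob library 68 and with a GC offset. Right, the percent of tested genes called lower (blue) or higher (red) in CT ob in the same deciles, which runs from 17.6% lower in the lowest decile to 6.93% higher in the highest.

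The gradient was also a property of single libraries. A GC tilt was taken for each library as the median log2 deviation from the gene means in the 2 highest deciles of GC content minus that in the 2 lowest. It was 0.259, 0.222 and 0.995 in CT ob libraries 60, 65 and 68 and -0.107, -0.694, -0.103 and -0.266 in CT db libraries 37, 51, 69 and 75, with no overlap (exact permutation test, two-sided, p = 0.0286). In the 7 mutant libraries it lay between -0.19 and 0.078. When each library's smooth trend on GC content was entered as an offset (GC offset), 141 genes were called (1.12%), 129 of them among the 834. With the GC offset and without the 18S-rich library, 28 were called (0.212%). Since every CT ob library was tilted one way and every CT db library the other, the tilt and the group cannot be told apart.

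A set of 51 genes passed with all libraries, without the 18S-rich library and with the GC offset, each taken alone, 7 higher and 44 lower in CT ob. The lower genes included the gap junction gene of granulosa cells. Gja1, which encodes connexin 43, was at 5719, 6934 and 5563 CPM in CT ob libraries 60, 65 and 68 and at 12695, 18164, 15881 and 20835 CPM in CT db libraries 37, 51, 69 and 75. All CT ob libraries thus lay below all CT db libraries, by 2.78-fold between the means (log2 fold change -1.47, SE 0.19, adjusted p = 0.00221). Without the 18S-rich library the log2 fold change was -1.43 (adjusted p = 0.0124) and with the GC offset -1.32 (adjusted p = 0.00309).

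Other genes of this set were lower with it. Chmp5, a component of the ESCRT machinery that sorts membrane proteins into vesicles, was at 147, 143 and 115 CPM in CT ob and 308, 491, 343 and 463 CPM in CT db (log2 fold change -1.57, adjusted p = 0.00204). Ap3s1, a subunit of the AP-3 adaptor complex, was at 48.1, 43.1 and 50 CPM against 160, 155, 133 and 152 CPM (log2 fold change -1.67, adjusted p = 0.00204). The spread within each group was small beside the gap for both. Cmpk1, a kinase of pyrimidine nucleotides, was at 78, 94.4 and 47.3 CPM against 207, 261, 179 and 250 CPM (log2 fold change -1.60, adjusted p = 0.00443). Gtf2a2 was at 192, 216 and 155 CPM against 376, 506, 441 and 493 CPM (log2 fold change -1.27, adjusted p = 0.00204). Hnrnpa2b1, an abundant RNA-binding protein, was at 1903, 1921 and 1782 CPM against 3667, 4017, 3355 and 3815 CPM (log2 fold change -0.99, adjusted p = 0.00658). Among the CT ob libraries, library 68 was lowest for Chmp5, Cmpk1, Gtf2a2 and Hnrnpa2b1 and highest for Ap3s1. In the list of 39 ESCRT and vesicle sorting genes, Chmp5 was the 1 lower and 2 were higher, with a median log2 fold change of 0.11. These were 2.56% and 5.13%, against 4.39% and 2.24% of all tested genes.

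Rgs13, a regulator of G protein signalling, was at 3.26, 15.4 and 8.16 CPM in CT ob and 32.9, 141, 221 and 280 CPM in CT db (log2 fold change -4.25, SE 0.627, adjusted p = 0.00558). Fam81a was at 167, 234 and 252 CPM against 526, 758, 679 and 901 CPM (log2 fold change -1.71, adjusted p = 0.0032). The widest spread of these was that of Rgs13 within CT db, where library 37 was far below the other 3. With the GC offset and without the 18S-rich library together, Rgs13 was not called (adjusted p = 0.0717). Vcpkmt, a lysine methyltransferase of the ATPase VCP, was at 18, 13.7 and 13.6 CPM against 32.9, 57.5, 58.5 and 61.4 CPM (log2 fold change -1.79, adjusted p = 0.00204). Atf1, a transcription factor of the CREB family, had a log2 fold change of -1.02 (adjusted p = 0.00268).

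Of the 51 genes, the 7 that were higher in CT ob began with a protease. Ide, the insulin-degrading enzyme, was at 730, 707 and 541 CPM in CT ob and 281, 230, 331 and 242 CPM in CT db, 2.43-fold between the means (log2 fold change 1.29, SE 0.184, adjusted p = 0.00489). Dag1, the matrix receptor dystroglycan, was at 967, 717 and 845 CPM against 428, 296, 317 and 441 CPM (log2 fold change 1.19, adjusted p = 0.00658). No library of either group crossed into the other. Erbb2 was at 147, 60.3 and 159 CPM against 49.3, 30.2, 40.9 and 35.2 CPM (log2 fold change 1.66, adjusted p = 0.00668). Pcsk6, a proprotein convertase that processes growth factors of the TGF-beta family, was at 30.3, 11.5 and 23.1 CPM against 3.66, 1.92, 3.02 and 2.73 CPM (log2 fold change 2.94, adjusted p = 0.00986). Unc5b was at 11.3, 4.73 and 18.4 CPM against 1.41, 0.213, 1.37 and 0.819 CPM (log2 fold change 3.58, adjusted p = 0.00668), which stood for 1 to 5 counts per CT db library. The remaining 2 were Rnf213, a large ubiquitin ligase (log2 fold change 1.13, adjusted p = 0.0101), and Pdia4, a protein disulphide isomerase of the endoplasmic reticulum (log2 fold change 0.83, adjusted p = 0.0199). With the GC offset and without the 18S-rich library together, Ide (adjusted p = 0.0126) and Pdia4 (0.0297) were still called. Dag1 (adjusted p = 0.062), Erbb2 (0.0795), Pcsk6 (0.0729), Unc5b (0.0648) and Rnf213 (0.0875) were not.

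**Figure D3:**
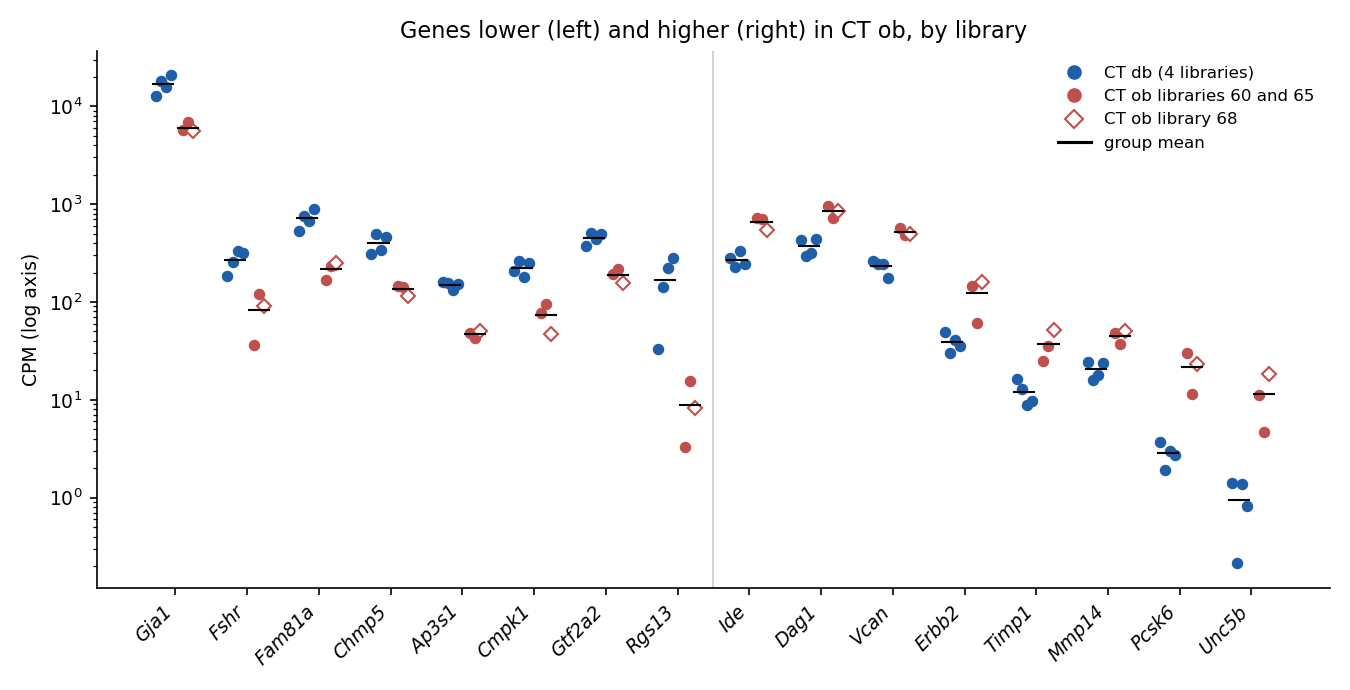
CPM on a log axis (y) for named genes (x) in each of the 7 libraries, with blue circles for CT db, red circles for CT ob libraries 60 and 65, an open red diamond for CT ob library 68 and a black line for each group mean. The CT ob and CT db points do not overlap for any of them, and library 68 lies with the other CT ob libraries. Most of these genes were chosen among called genes without overlap, so this is not a separate result.

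In each of the granulosa function lists at most 3 genes were called. Among 22 granulosa markers, 3 were lower in CT ob (13.6%, against 4.39% of all tested genes) and 0 were higher. The median log2 fold change of the markers was -0.18, against 0.06 over all tested genes. Without the 18S-rich library this median was -0.54, with 2 lower. The summed level of the 22 markers was 16748, 19158 and 22731 CPM in CT ob and 24682, 30923, 34408 and 34391 CPM in CT db (exact permutation test, two-sided, p = 0.0571). Gja1 carried that gap. Without it the sums were 11029, 12224 and 17168 CPM in CT ob and 11987, 12759, 18527 and 13556 CPM in CT db, which overlapped (exact permutation test, two-sided, p = 0.714). In pooled cells, fewer cells of a type and less RNA per cell cannot be told apart.

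The 3 lower markers were Gja1, Fshr and Nap1l5. Fshr, through which FSH drives follicle growth, was at 36.4, 120 and 90.8 CPM in CT ob and 184, 254, 332 and 314 CPM in CT db (log2 fold change -1.72, SE 0.349, adjusted p = 0.0163). It lay below CT db in all 3 CT ob libraries, lowest in library 60. Without the 18S-rich library the size of the change was much the same and the adjusted p was 0.057. The transcription factor Wt1, which is highest in granulosa cells of small follicles, was at 265, 246 and 114 CPM against 93.7, 78, 24.2 and 54.9 CPM, without overlap but not called (log2 fold change 1.74, adjusted p = 0.107). Of 22 transcription factors of granulosa cells, 0 were called with or without the 18S-rich library, and 1 was lower with the GC offset. The median log2 fold change was -0.20 with all libraries, -0.37 without the 18S-rich library and -0.34 with the GC offset.

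Among 25 genes of gonadotropin receptors and cAMP signalling, Fshr was lower and the cAMP phosphodiesterase Pde4a was higher (log2 fold change 1.53, adjusted p = 0.0481), and 0 were called without the 18S-rich library. These were 4% in each direction, against 4.39% lower and 2.24% higher over all tested genes. Of 24 genes of steroid synthesis, 1 was lower (4.17%, near the 4.39% of all tested genes) and 0 higher. It was Akr1c14, an enzyme that reduces 3-ketosteroids, at 784, 511 and 519 CPM in CT ob and 1224, 1450, 1180 and 1148 CPM in CT db (log2 fold change -1.04, adjusted p = 0.0247). With the GC offset its log2 fold change was -0.41 (adjusted p = 0.371), and without the 18S-rich library it was -0.96 (adjusted p = 0.0879). Aromatase (Cyp19a1) was at 10.5, 17.7 and 16.3 CPM against 19.4, 15.5, 106 and 29.8 CPM, with overlapping groups (adjusted p = 0.255). Inha, the alpha subunit of inhibin, was at 3572, 3255 and 7231 CPM against 3405, 4421, 5679 and 4563 CPM (adjusted p = 0.91). Its level in library 68 exceeded that in every other library.

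With the 18S-rich library left out, 0 of 32 genes in the list of inhibin, activin, BMP and TGF-beta genes were called. With all libraries 3 were lower in CT ob (9.38%, against 4.39% of all tested genes) and 0 higher. These were the ligand Tgfb3 (log2 fold change -1.41, adjusted p = 0.0291) and the receptors Tgfbr1 (-0.77, adjusted p = 0.0342) and Bmpr2 (-1.39, adjusted p = 0.0446). Tgfb3 was at 11.7, 19.9 and 18 CPM in CT ob and 27.6, 29.8, 63.2 and 55.4 CPM in CT db, and it was called with the GC offset too (adjusted p = 0.034). Of 32 genes of insulin and IGF signalling, 1 was higher (3.12%, against 2.24% of all tested genes) and 0 lower. It was the IGF carrier Igfbp2, at 42.2, 27.2 and 64.6 CPM against 16.9, 17.7, 15.4 and 22.9 CPM (log2 fold change 1.29, adjusted p = 0.0181, without the 18S-rich library adjusted p = 0.0849). Of 23 genes of leptin, JAK and STAT signalling, 0 were called and the median log2 fold change was 0.10. Lepr itself had 3, 8 and 12 counts in CT ob and 1, 6, 2 and 1 in CT db, and Lep had 0, 0 and 2 counts against 0 in every CT db library, so both were below the filter. Among 29 genes of WNT signalling, Wnt4 was higher (17.8, 16.9 and 59.8 CPM against 12.4, 2.34, 3.3 and 1.64 CPM, adjusted p = 0.0352) and the antagonist Dkk3 lower (log2 fold change -1.51, adjusted p = 0.0453), and 0 were called without the 18S-rich library. Each made up 3.45% of the list, against 2.24% higher and 4.39% lower over all tested genes.

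Of the 46 gene lists, that of the extracellular matrix had the most members called higher. Of 40 matrix genes, 7 were higher in CT ob (17.5%, against 2.24% of all tested genes) and 0 lower. The median log2 fold change was 0.81 with all libraries and 0.99 without the 18S-rich library. Of 19 collagen genes, 4 were higher (21.1%) and 0 lower, with medians of 1.54 and 1.12. Without the 18S-rich library 1 matrix gene and 0 collagens were called, where calls over all genes fell from 834 to 112. With the GC offset 1 matrix gene and 0 collagens were called, with medians of 0.56 and 1.26. These transcripts are rich in G and C (medians 53.1% and 53.9%). The members called were not held to 1 kind of matrix. Col4a1, a chain of basement membrane collagen IV, was at 5.17, 70 and 16 CPM in CT ob and 4.22, 1.7, 2.2 and 1.91 CPM in CT db (log2 fold change 3.60, SE 0.852, adjusted p = 0.028). Its partner Col4a2 was at 5.37, 47.6 and 8.16 CPM against 2.53, 0.426, 2.75 and 2.46 CPM (log2 fold change 3.33, adjusted p = 0.0288). Library 65 held most of the collagen IV counts of CT ob, while library 60 was close to the CT db values. Without library 68 the log2 fold changes were 3.89 for Col4a1 and 3.70 for Col4a2 (adjusted p = 0.057 and 0.0517), and with the GC offset they were 3.31 and 3.09 (adjusted p = 0.0729 and 0.08).

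Col12a1, which associates with collagen fibrils, was spread evenly at 14, 7.72 and 10.9 CPM against 5.07, 3.19, 1.65 and 1.91 CPM (log2 fold change 1.87, adjusted p = 0.03). Col16a1 was at 29.3, 5.73 and 11.2 CPM against 5.35, 2.77, 1.92 and 1.64 CPM (adjusted p = 0.0332), and its gap between the groups was narrow. The laminin chains Lamb2 (log2 fold change 0.68, adjusted p = 0.0307) and Lama1 (0.76, adjusted p = 0.0319) rose by less, and the groups overlapped for Lama1. Lamb2 was at 0.33 with the GC offset (adjusted p = 0.387). Versican (Vcan), a proteoglycan of follicular fluid and of the expanding cumulus, was at 576, 480 and 494 CPM against 260, 247, 246 and 177 CPM (log2 fold change 1.15, adjusted p = 0.0344), and it was called with the GC offset (adjusted p = 0.0389). The summed collagens were 197, 430 and 276 CPM in CT ob and 147, 160, 171 and 193 CPM in CT db.

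Matrix enzymes and their inhibitors changed in both directions, with 4 higher and 2 lower of 26. These were 15.4% and 7.69%, against 2.24% and 4.39% of all tested genes. Of the 26, 0 were called without the 18S-rich library, and 1 was higher and 1 lower with the GC offset. Timp1, an inhibitor of matrix metalloproteinases, was at 25.1, 35.6 and 52 CPM in CT ob and 16.3, 12.8, 8.79 and 9.83 CPM in CT db (log2 fold change 1.65, adjusted p = 0.0102, with the GC offset adjusted p = 0.0248). Mmp14, a membrane-bound metalloproteinase, was at 47.7, 37.4 and 50.3 CPM against 24.5, 16, 17.9 and 24 CPM (log2 fold change 1.14, adjusted p = 0.0134). Its substrate Mmp2, a gelatinase, was at 41.8, 10.5 and 19 CPM against 2.53, 2.77, 1.37 and 0 CPM (adjusted p = 0.0346). These 3 were higher in every CT ob library. The fourth was the lysosomal protease Ctsd (log2 fold change 0.52, adjusted p = 0.0423). The proteases Adamts6 (log2 fold change -1.37, adjusted p = 0.0164) and Adamts5 (-1.90, adjusted p = 0.0456) were lower. Among 28 adhesion genes, Gja1, the integrin chain Itgav (-0.94, adjusted p = 0.0371) and the cell adhesion molecule Nectin3 (-0.74, adjusted p = 0.0481) were lower, although the median of the list was 0.43. They made up 10.7% of the list, against 4.39% of all tested genes called lower. Of these 3, Gja1 was called without the 18S-rich library and with the GC offset. Stroma and smooth muscle markers added up to 36.2, 183 and 64.2 CPM in CT ob and 31.8, 41.5, 62.9 and 45.6 CPM in CT db, and their part in the matrix result was not tested.

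Some lists of housekeeping genes had medians of the other sign when the 18S-rich library was left out, and some did not. The median log2 fold change of 85 cytosolic ribosomal protein genes was 0.27 with all libraries and -0.24 without it, and 0 were called with all libraries. Their summed level was 25786, 32082 and 59417 CPM in CT ob libraries 60, 65 and 68 and 31114 to 35742 CPM in CT db, so library 68 stood alone. For 36 genes of complex I of the respiratory chain the medians were 0.26 and -0.11, and for 40 genes of complexes II to V they were 0.24 and -0.06. For 24 immediate early genes, which respond within minutes to stimulation or tissue handling, they were 0.29 and -0.52 with 0 called. The medians kept their sign for 77 genes of mitochondrial translation (0.21 and 0.06), 35 tRNA synthetases (0.15 and 0.24) and 28 genes of the unfolded protein response (0.22 and 0.21).

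**Figure D4:**
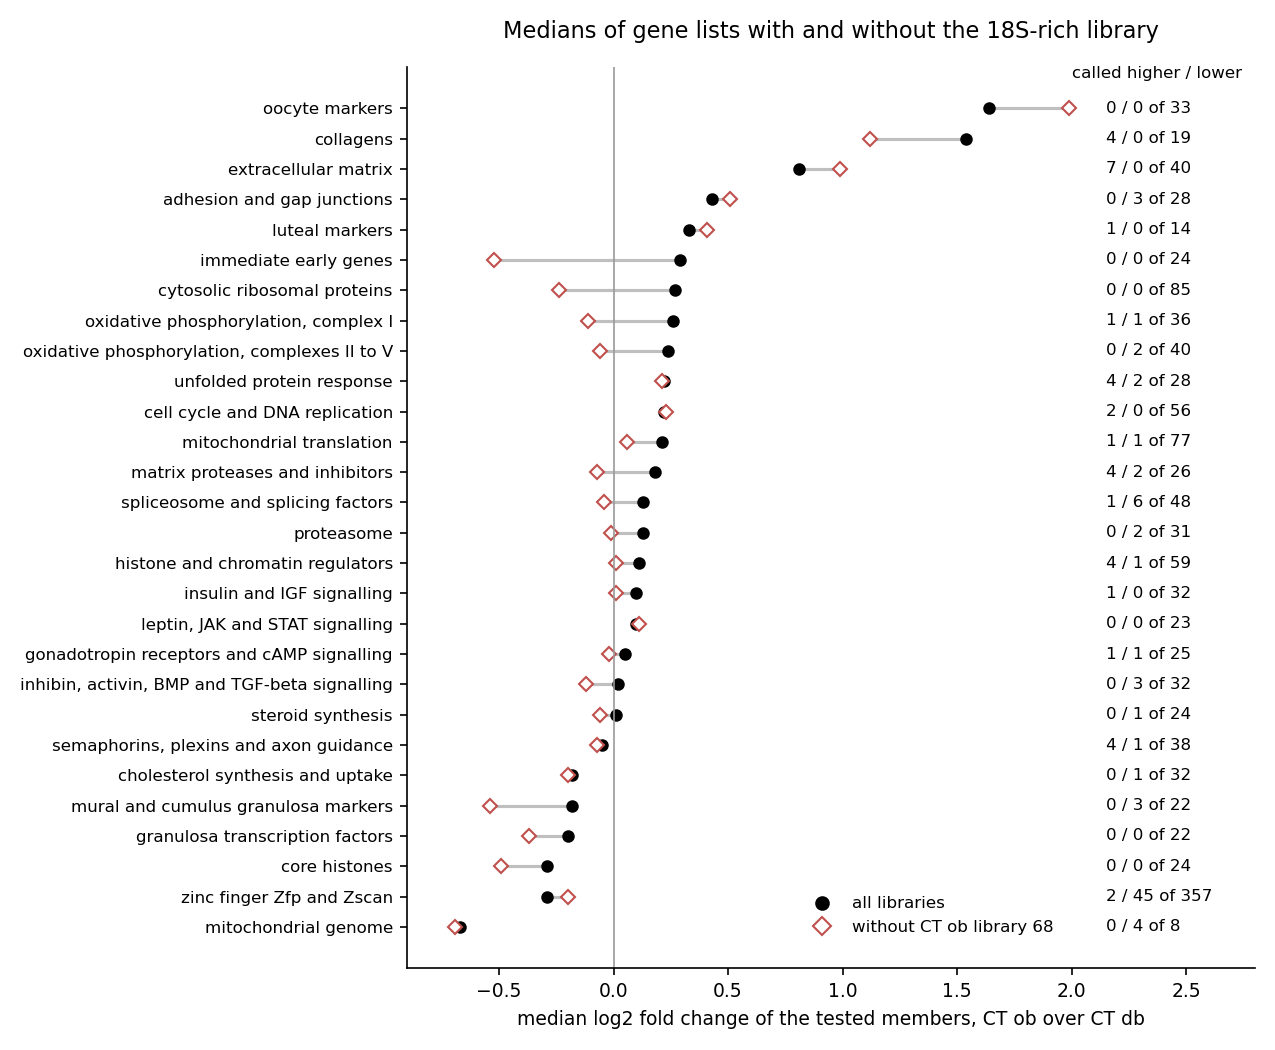
Median log2 fold change of CT ob over CT db (x axis) over the tested members of the gene lists named on the y axis, with all libraries (black circles) and without CT ob library 68 (open red diamonds). The numbers at the right give members called higher and lower of those tested. Ribosomal proteins (0.27 and -0.24), immediate early genes (0.29 and -0.52) and both respiratory chain lists are among those that change sign, while oocyte markers, collagens and matrix genes stay above 0 and zinc finger genes and the mitochondrial genome below 0.

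A few single respiratory genes were called. Ndufb6 was at 47.5, 55.6 and 56.1 CPM in CT ob and 83.6, 114, 114 and 104 CPM in CT db (log2 fold change -0.97, adjusted p = 0.00658), while Ndufa13 was higher through library 68, at 72.6, 78.2 and 216 CPM against 52.1 to 62.9 CPM (adjusted p = 0.0456, without library 68 adjusted p = 0.247). Both encode subunits of complex I. Uqcrb of complex III (log2 fold change -0.76, adjusted p = 0.0259) and Atp5pb of the ATP synthase (-0.59, adjusted p = 0.0331) were lower. Atp5pb turned to 0.04 with the GC offset (adjusted p = 0.923) and Uqcrb was at -0.31 (adjusted p = 0.372).

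Genes of the mitochondrial genome were lower in CT ob. All 8 of the 13 protein genes that passed the filter had a log2 fold change below 0, with 4 called and a median of -0.67 (-0.69 without the 18S-rich library, with 0 called). The mitochondrial gene mt-Co1, a subunit of cytochrome c oxidase, was at 9075, 9337 and 3962 CPM against 14866, 26574, 14101 and 20148 CPM (adjusted p = 0.0371). The gene mt-Cytb, of complex III, was at 5341, 5388 and 4147 CPM against 6837, 10572, 9207 and 10205 CPM (log2 fold change -0.89, adjusted p = 0.0277). No CT ob library reached a CT db library in either. Mitochondrial transcripts are poor in G and C (median 36.4%), and with the GC offset the median of the list was 0.03 with 0 called.

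Many of the lower genes encode zinc finger proteins. Of 357 tested Zfp and Zscan genes, 45 were lower in CT ob (12.6%, against 4.39% of all tested genes) and 2 higher. The median log2 fold change was -0.29 (-0.20 without the 18S-rich library, with 8 lower). Many genes of this class encode repressors with a KRAB domain. The transcripts of the 357 had a median of 43.9% G and C. With the GC offset 7 were lower and 0 higher, with a median of -0.13. Zfp711 was at 16.1, 14.7 and 10.5 CPM in CT ob and 25.6, 50.9, 54.1 and 65.2 CPM in CT db (log2 fold change -1.81, adjusted p = 0.00558). Zfp975 was at 24.5, 21.2 and 11.6 CPM against 63.9, 108, 65.9 and 62.2 CPM (log2 fold change -1.95, adjusted p = 0.00558), and Zfp260 at 108, 96.9 and 76.5 CPM against 173, 226, 184 and 200 CPM (log2 fold change -1.05, adjusted p = 0.00558). These 3 were called with the GC offset as well. Predicted Gm genes (33 lower, 1 higher of 765), RIKEN genes (16 lower, 3 higher of 347) and long noncoding genes (22 lower, 3 higher of 557) were called lower at shares near that of all tested genes. These shares were 4.31%, 4.61% and 3.95%, against 4.39%. Their medians were -0.26, -0.18 and -0.23, and -0.03, -0.10 and -0.11 with the GC offset.

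Of 48 splicing genes 6 were lower (12.5%, against 4.39% of all tested genes) and 1 higher, and without the 18S-rich library 1 was lower. The median of the list was 0.13, with 27 genes above 0 and 21 below. Snrpe, a core protein of the spliceosome, was at 221, 279 and 429 CPM in CT ob and 478, 775, 663 and 797 CPM in CT db (log2 fold change -1.13, adjusted p = 0.0144), and the factor Srsf1 was at 736, 773 and 459 CPM against 1270, 1362, 1071 and 1192 CPM (log2 fold change -0.90, adjusted p = 0.0273). Of 33 ubiquitin-conjugating enzymes 4 were lower (12.1%, against 4.39% of all tested genes) and 1 higher (3.03%, against 2.24%), led by Ube2q2 (log2 fold change -1.25, adjusted p = 0.0164). Without the 18S-rich library 0 of these enzymes were called, with Ube2q2 at an adjusted p of 0.066. With the GC offset Ube2q2 was the 1 called (adjusted p = 0.0248). The proteasome subunits Psma3 (-0.69, adjusted p = 0.0163) and Psmd14 (-0.72, adjusted p = 0.0179) were the 2 lower of 31 (6.45%, against 4.39% of all genes), in a list whose median was 0.13 with 24 genes above 0. Without the 18S-rich library 0 of the proteasome genes were called. With the GC offset 0 of the splicing and proteasome genes were called, and Psmd14 then had a log2 fold change of -0.03.

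Of 28 genes of the unfolded protein response, which control protein folding in the endoplasmic reticulum, 4 were higher and 2 lower. These were 14.3% and 7.14%, against 2.24% and 4.39% of all tested genes. Called higher and lower were 1 and 0 without the 18S-rich library and 1 and 1 with the GC offset. Pdia4 was at 904, 848 and 618 CPM in CT ob and 574, 451, 390 and 371 CPM in CT db, and the chaperone Hyou1 at 342, 324 and 275 CPM against 223, 184, 199 and 183 CPM (log2 fold change 0.67, adjusted p = 0.0324). Hyou1 was at 0.40 with the GC offset (adjusted p = 0.255). Neither Pdia4 nor Hyou1 was highest in library 68. The cochaperone Dnajb9 was lower (log2 fold change -1.01, adjusted p = 0.0326). Of 38 semaphorin and axon guidance genes, 4 were higher, among them Unc5b, Sema6b (1.68, adjusted p = 0.0218) and Plxnb2 (0.78, adjusted p = 0.0346), and Sema5a was lower (-1.67, adjusted p = 0.0164). In that list 10.5% were higher and 2.63% lower, against 2.24% and 4.39% of all tested genes. Its median was -0.05, and 1 and 0 were called higher and lower without the 18S-rich library and 1 and 1 with the GC offset.

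Each of the lists of fatty acid, glycolysis, cholesterol and antioxidant genes had at most 1 gene called higher and 1 lower. These were up to 3.7% of a list in either direction, against 2.24% and 4.39% of all tested genes. G6pdx, the first enzyme of the pentose phosphate pathway, was at 100, 94.4 and 105 CPM in CT ob and 65, 38.8, 52.2 and 42.3 CPM in CT db (log2 fold change 1.02, adjusted p = 0.0139) and was called with the GC offset (adjusted p = 0.0248). Cd36, a fatty acid and lipoprotein receptor, was at 58.8, 152 and 60.2 CPM against 162, 733, 448 and 681 CPM (log2 fold change -2.48, SE 0.5, adjusted p = 0.0163). The lowest CT db library was close to the highest CT ob library for Cd36. Elovl2, which lengthens polyunsaturated fatty acids, was higher (log2 fold change 1.75, adjusted p = 0.032). Sc5d, a late enzyme of cholesterol synthesis, was the 1 called of 32 cholesterol genes (log2 fold change -1.02, adjusted p = 0.009). Of 40 antioxidant genes, Gss was higher (0.98, adjusted p = 0.029) and Gclm lower (-0.70, adjusted p = 0.0481). Of 56 cell cycle genes, Pold1 (0.93, adjusted p = 0.012) and Tk1 (0.78, adjusted p = 0.0332) were higher (3.57%) and 0 lower. Without the 18S-rich library 0 genes of the fatty acid, glycolysis, antioxidant and cell cycle lists were called, while Sc5d was (adjusted p = 0.0366). With the GC offset Cd36 (adjusted p = 0.0555) and Pold1 (adjusted p = 0.131) were not called.

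In 22 of the 64 lists and classes no member was called, and the largest of these by tested members were the ribosomal proteins, 35 tRNA synthetases, 33 oocyte markers and 26 chaperones. Other lists are given with their shares called higher and lower, against 2.24% and 4.39% of all tested genes. Of 59 chromatin regulators 4 were higher and 1 lower (6.78% and 1.69%), and of 207 solute carriers 4 and 10 (1.93% and 4.83%). Of 77 genes of mitochondrial translation 1 and 1 were called (1.3% and 1.3%), and of 33 translation factors 1 and 2 (3.03% and 6.06%). Of 39 vesicle sorting genes 2 and 1 were called (5.13% and 2.56%), and of 32 interferon and antigen genes 1 and 1 (3.12% and 3.12%). Without the 18S-rich library each of these lists had at most 1 call. In the last list B2m, the invariant chain of class I antigens, was at 150, 182 and 128 CPM in CT ob and 174, 226, 623 and 551 CPM in CT db, with overlapping groups (adjusted p = 0.0461).

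Transcripts of the oocyte were found in the granulosa libraries of both groups, although oocytes had been stripped of their cumulus cells and kept apart. All 33 tested oocyte markers had a log2 fold change above 0 and 0 were called, with a median of 1.64 (1.99 without the 18S-rich library). Zp3, a protein of the zona pellucida, was at 121, 33.1 and 9.86 CPM in CT ob and 0, 19.8, 11.3 and 0.546 CPM in CT db (adjusted p = 0.104). Gdf9, an oocyte growth factor, was at 339, 70 and 15.6 CPM against 1.13, 63.3, 33.2 and 5.46 CPM (adjusted p = 0.148). Library 60 was high and library 68 lay among the CT db libraries. The summed markers were 2489, 691 and 323 CPM in CT ob and 81.6, 738, 497 and 115 CPM in CT db (exact permutation test, two-sided, p = 0.2), so library 60 held most of the difference.

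The summed markers of most other cell types overlapped between the groups, and those of endothelial cells did not. Endothelial markers added up to 28, 87.9 and 30.6 CPM in CT ob and 7.32 to 17.6 CPM in CT db, without overlap (exact permutation test, two-sided, p = 0.0286), and 0 of 5 tested were called. Theca and interstitial markers added up to 295, 875 and 1513 CPM against 320, 617, 1349 and 513 CPM, and Cyp17a1, the androgen-making enzyme of theca cells, was at 0.575, 23.2 and 10.9 CPM against 3.38, 0.426, 11.8 and 30.8 CPM. These overlapped. Immune markers added up to at most 29.9 CPM. Library 65, which had the highest collagen IV and endothelial levels, had the highest stroma level too. The part of these cells in the differences between the groups was not tested.

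The mutants of the colonies were compared in the same fit. Their libraries are not part of the lean contrast, but they entered the estimate of the spread behind the lean calls. In ob/ob against db/db 2 genes were called (0.0159%), Ndufs5-ps and Grik3, and both were called between the lean groups in the same direction. In the fit of the 7 control libraries, which leaves the mutants out, Ndufs5-ps was called (adjusted p = 0.0206) and Grik3 was not (adjusted p = 0.0524). Of the 834 genes called between the lean groups, 679 (81.4%) had the same direction in the mutants, against 65.3% of all tested genes. Of the 834, 179 had the same direction and an unadjusted p under 0.05 there. The share with the same direction was 71.2% (245 of 344) for called genes in the 2 lowest deciles of GC content. It was 90.7% (147 of 162) for those in the 2 highest. Among the 51 genes called also with the GC offset and without the 18S-rich library, 37 (72.5%) had the same direction. Of these 51, 18 had the same direction and an unadjusted p under 0.05. The median size of the log2 fold change of the 834 was 0.26 in the mutants. The difference between the lean and the mutant comparison was tested in the same fit of edgeR, and 0 genes passed (0%, 1021 with an unadjusted p under 0.05), so no gene was shown to differ in the lean groups only. The mutant groups also differed in depth.

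Ndufs5-ps, a processed pseudogene of the complex I gene Ndufs5, had the smallest p of all. It had 2, 1 and 1 counts in the CT ob libraries and 38, 54, 109 and 73 in the CT db libraries, or 0.383, 0.249 and 0.34 CPM against 10.7, 11.5, 29.9 and 19.9 CPM (adjusted p = 0.000474). The ratio of CT db to CT ob over the pooled counts was 53.6 (95% exact interval of counting error 20.7 to 198). In the mutants its counts ran from 2 to 5 (ob/ob) and from 48 to 89 (db/db). Ndufs5 itself went the other way, with 137, 80 and 156 counts in CT ob and 38, 79, 5 and 0 in CT db (26.3, 19.9 and 53 CPM against 10.7, 16.8, 1.37 and 0 CPM, adjusted p = 0.0874). In the mutants its counts ran from 140 to 254 (ob/ob) and from 1 to 7 (db/db).

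The sequences of this pair are printed because very few of the coding bases tell reads of the parent and the pseudogene apart. Over the 318 coding bases of Ndufs5 the pseudogene is equal at 316, and the differences are T81C and A105G, counted from 1 at the first base of the start codon with the base of Ndufs5 first. The stretch from base 61 to base 120 lies at chr4:123609753-123609812 (minus strand, coding exon of Ndufs5) and chr16:42776054-42776113 (plus strand, the pseudogene) in GRCm39, with the differing bases in capitals.
Ndufs5: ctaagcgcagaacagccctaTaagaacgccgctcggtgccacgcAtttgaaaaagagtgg
Ndufs5-ps: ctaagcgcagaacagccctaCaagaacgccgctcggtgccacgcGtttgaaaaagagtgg
A read of 75 bp that lies within the compared coding bases and misses the differing ones matches both copies. The split of counts between the copies thus depends in part on how such reads were counted and on the alleles of each colony, which the counts do not give. Bases of Ndufs5 outside the coding sequence were not compared. Ndufs5 lies 22 Mb from Lepr on chromosome 4.

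Grik3, a kainate receptor subunit, lies near it, 23.9 Mb from Lepr. It was at 6.32, 2.49 and 3.74 CPM in CT ob and 23.1, 29.8, 47.8 and 74.5 CPM in CT db (log2 fold change -3.33, SE 0.415, adjusted p = 0.00204) and at 1.8 to 3.45 CPM in ob/ob and 68.7 to 83.1 CPM in db/db (log2 fold change -4.77, adjusted p = 7.19e-05). In both colonies the mutants thus lay on the side of their lean controls. Of 10 tested genes known to vary between C57BL/6 substrains, 1 was higher and 2 lower in CT ob, namely Ide, Wdfy1 and Cyfip2. These were 10% and 20%, against 2.24% and 4.39% of all tested genes. Called higher and lower were 1 and 0 without the 18S-rich library and 1 and 1 with the GC offset. Wdfy1 was at 8.81, 10.5 and 7.82 CPM in CT ob and 54, 62, 11 and 62.5 CPM in CT db (log2 fold change -2.38, adjusted p = 0.0106), so CT db library 69 was at the CT ob level. Its log2 fold change between the mutants was -2.22 (adjusted p = 0.297).

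Ide, which lies next to Fgfbp3 in a segment of chromosome 19 known to vary in copy number between substrains, had a log2 fold change of 0.86 between the mutants (adjusted p = 0.322), with 529 to 687 CPM in ob/ob and 250 to 389 CPM in db/db. Fgfbp3 was at 148, 157 and 125 CPM in CT ob and 118, 68.2, 36 and 37.4 CPM in CT db, short of the threshold (log2 fold change 1.15, adjusted p = 0.0783), and its log2 fold change between the mutants was 1.17. Neither gene overlapped between the colonies in the lean groups. Cyfip2 was lower (log2 fold change -1.19, adjusted p = 0.0456) with overlapping groups. G6pdx had a log2 fold change of 0.92 between the mutants (adjusted p = 0.322), close to that between the lean groups.

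Gja1 was at 10308 to 12264 CPM in ob/ob and 12796 to 15419 CPM in db/db (log2 fold change -0.30, adjusted p = 0.774), between the levels of the lean groups. Fshr had a log2 fold change of -0.41 between the mutants (adjusted p = 0.866), Chmp5 of -0.17 (adjusted p = 0.919), Timp1 of 0.25 (adjusted p = 0.93) and Unc5b of -0.35 (adjusted p = 0.953). Each was smaller in size than between the lean groups. The adjusted p of the difference between the lean and the mutant comparison was 0.215 for Gja1, 0.523 for Fshr, 0.189 for Chmp5, 0.417 for Timp1 and 0.189 for Unc5b, so these differences did not pass the test.

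**Figure D5:**
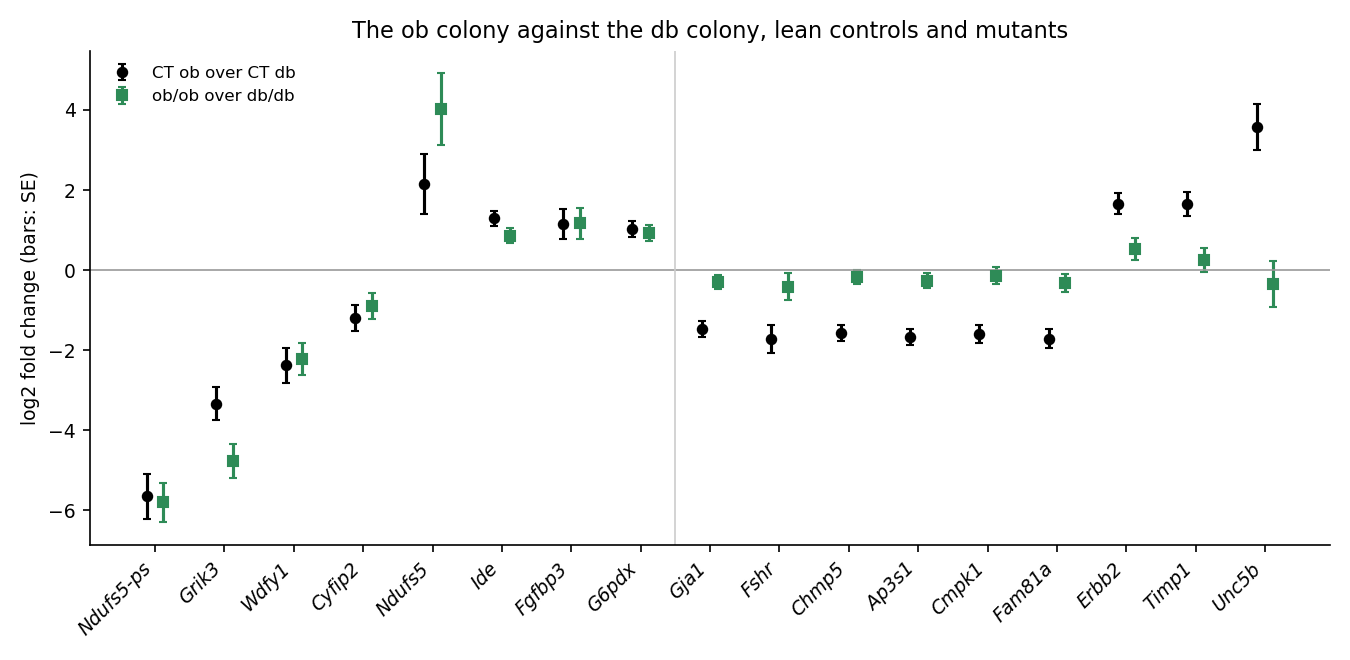
Log2 fold change of the ob colony over the db colony (y axis, bars are SE) for named genes (x axis) between the lean controls (black circles) and between the mutants (green squares). Ndufs5-ps and Grik3 at the left were called in both. Of the other genes left of the line, Wdfy1 (-2.38 and -2.22) and G6pdx (1.02 and 0.92) have like values in both. Ide has a smaller one in the mutants (1.29 and 0.86), while the counts of Ndufs5 lay further apart in the mutants. Genes right of the line, such as Gja1 (-1.47 and -0.30), are nearer 0 in the mutants.

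The share of called genes near Lepr and Lep depended on the window. Within 20 Mb of Lepr on chromosome 4, 11 of 183 tested genes were called (6.01%), against 6.64% on the rest of that chromosome. Cmpk1, Ift74 and Tm2d1 had the smallest p there. Within 20 Mb of Lep on chromosome 6, 8 of 147 were called (5.44%), against 5.51% beyond. Within 10 Mb of Lepr the share was 8.24%, against 6.27% beyond, and within 40 Mb it was 7.48%, against 5.2%. For Lep it was 4% within 10 Mb, against 5.69% beyond, and 7.66% within 40 Mb, against 4.29%. With the GC offset 2.19% were called within 20 Mb of Lepr, against 0.874% beyond, and 0.68% within 20 Mb of Lep, against 1.38%. Over all tested genes these shares were 6.63% and 1.12%. Of the 13 tested genes of the mitochondrial genome 30.8% were called, and over the autosomes and the X chromosome the share of called genes ran from 4.84% on chromosome 7 to 11.3% on the X chromosome, where 43 genes were lower and 8 higher and the median GC content was 44.6%. Chromosome 13 followed with 10.1%, 42 lower and 10 higher. The GC offset left 2.21% of the tested X-linked genes and 0.975% of those on chromosome 13 called, against 1.12% of all.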

How the data were processed

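The authors deposited raw counts per gene, not normalized, for 14 libraries. The paper's methods name cutadapt, STAR, featureCounts and GRCm39, whereas the labels' processing notes list FastQC, Trim Galore 0.6.2, HISAT2 2.1.0 and GRCm38, so the pipeline could not be settled. The strand setting and the treatment of reads matching several genes are not given in the sources used here, and counts of antisense or near-identical genes are uncertain. Reads had 75 bp and no molecular identifiers, so intervals cover counting error only.

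Counts were scaled by TMM (CPM are counts scaled to a common library size) and genes kept by filterByExpr (minimum count 10, total 15). The quasi-likelihood test of edgeR 4.0.16 (R 4.3.3) was fitted to all 14 libraries in 4 groups (10 residual degrees of freedom), with Benjamini-Hochberg adjustment over 12586 genes and calls at 0.05. DESeq2 1.42.0, limma 3.58.1 (voom), other scalings, filters, left-out libraries and a GC offset (lowess, span 0.3, chosen after seeing the data) were alternatives, as was the comparison of the mutants. Members and lists were chosen with earlier results of these data known. Named genes were Lep, Lepr, the 18S gene, the 12 non-overlapping called genes of smallest p per direction, up to 4 called members per list (else 2), up to 6 near Lepr or Lep, the 6 most abundant called genes per direction and defining markers, of which the text gives a part. Amh, Fam174a, Lama1, Ctsd, Adamts5, Gdf9, Ndufs5 and Fgfbp3 lie outside this rule and were chosen after their values were seen.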

Additional observations from a re-analysis of the deposited data

Results flagged for a closer look

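In CT db, the group with 4 libraries, the gap of the outermost library to its nearest neighbour was divided by the range of the group, and shares above Dixon's 95% critical value were taken as standing apart. This was so for 11 of 109 values tested, where chance flags about 1 in 20 groups. The share was 0.863 for Vcpkmt, 0.844 for Cyp19a1, 0.846 for Wnt4, 0.875 for Col4a2, 0.835 for Vcan, 0.919 for Zfp975, 0.914 for Plxnb2, 0.836 for Wdfy1, 0.852 for Tm2d1 and 0.834 for Ptprc. For the total count it was 0.849, since library 51 was deeper than the other 3. Library 37 stood apart for Vcpkmt and Wnt4, library 51 for Zfp975, Col4a2 and Plxnb2, library 69 for Cyp19a1, Wdfy1, Tm2d1 and Ptprc, and library 75 for Vcan. CT ob, with 3 libraries, was not tested in this way.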

How the results depend on the processing

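The 834 calls became 1563 with DESeq2, 1727 with no filter on low counts, 261 with scaling by library totals and 18 after downsampling. With the 7 control libraries alone 3 genes were called, and with the 6 left without library 68 1 gene. The GC offset gave 141, with the 7 control libraries alone 24, and without library 68 28. Leaving out each library in turn gave 112 (CT ob library 68) to 1196 (CT db library 37). Robust edgeR, limma-voom, RLE and upper quartile factors, a minimum of 10 counts everywhere and the omission of Rn18s-rs5 kept the count within 1.5 times. No paired analysis was possible because the columns carry no replicate number that the groups share.

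Genes named without a direction changed sign. The log2 fold change of Inha was -0.01 with limma-voom and library totals, -0.00 with no filter, -0.06 without library 37, -0.42 without library 68 (-0.40 in the 6 control libraries) and -0.34, -0.36 and -0.64 with the GC offset (all libraries, 7 control libraries, without library 68), and its leave-one-out range was -0.42 to 0.26. That of Cyp17a1 was 0.04 with upper quartile factors, 0.00 with library totals, 1.17, 0.59 and 0.00 without libraries 75, 60 and 68, and 0.02 in the 6 control libraries, with a leave-one-out range of -1.16 to 1.17. The call of Atp5pb turned to 0.04 with the GC offset and 0.05 with it in the 7 control libraries. The cause of these changes was not tested.

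Depth limits the genes near 1 CPM, which rest on about 4 counts per library, and 3 against 4 libraries limit every exact test.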
